A study of Homo sapiens with 5 samples.

Results

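A set of 10 regulators and markers of the primed human pluripotent state were followed in the human embryonic stem cell line H9, with and without an edited CFIm25 gene. They are POU5F1, SOX2, NANOG, LIN28A, LIN28B, PRDM14, SALL4, L1TD1, ZSCAN10 and TERT, taken by symbol from the 33857 genes listed, and all 10 were found once and were among the 19232 genes with enough reads to test. Poly(A+) RNA was measured in 2 mock control samples, from cells transfected with the empty eCRISPR vector, and in 3 CFIm25-m samples, from cells transfected with gRNAs that lead Cas9 to cut near the start codon of NUDT21, the gene of CFIm25. The labels call these groups control KO and CFIm25 KO. The study describes the edited cells as clones from independent gRNAs with strongly reduced CFIm25 protein that lacks a short N-terminal stretch, so they are knockdown and deletion mutants rather than a full knockout. All cells were untreated H9 cells grown in mTeSR medium on Matrigel, were selected with puromycin and had received the same kind of vector. The labels do not tie a library to a particular clone, and p-values measure the spread between these 5 libraries only.

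POU5F1 (OCT4), SOX2 and NANOG are the transcription factors at the centre of the pluripotency network. They bind many of the same enhancers, including their own, and POU5F1 and SOX2 bind side by side to a joint octamer and SOX element. PRDM14, SALL4 and ZSCAN10 are DNA-binding regulators that act with them, while LIN28A, LIN28B and L1TD1 are RNA-binding proteins. LIN28 proteins hold back the let-7 microRNAs by binding the precursor hairpin, and TERT is the catalytic subunit of telomerase, which keeps the telomeres of stem cells long.

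Across the 5 libraries the recovered reads totalled between 18754108 and 23372391, and the 10 genes took between 0.534% and 0.598% of them. The edited gene NUDT21 had normalized read counts (reads divided by the size factor of the library) of 6503 and 6398 in the mock controls, against 4035, 3281 and 3400 in CFIm25-m, which is -0.86 as a log2 fold change (SE 0.107, adjusted p = 0.00431, limma). Its call was lost without mock control 1 (adjusted p = 0.0618) or mock control 2 (adjusted p = 0.0557). ZFP42 (REX1), a stem cell transcription factor, was at 2306 and 2403 in the mock controls, against 4.01, 3.60 and 0 in CFIm25-m (adjusted p = 0.000123). All 10 genes, which mark embryonic stem cells, were at 505 or more in every library (normalized reads). CFIm25-m 3 stood apart from the other libraries. The chi-square of read counts per degree of freedom was 1.77 between the mock controls and 8.22 between CFIm25-m 1 and 2, but between 26.5 and 31.6 for every pair with CFIm25-m 3. Without this library 1044 genes were called as changed, against 361 with it, so results on the 10 genes are given both ways below.

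Promoter windows are shown for SOX2 and NANOG, the members whose windows held the octamer letters given below. Of the 10 genes, 6 had a promoter window of 250 bases before to 50 after a start site in RefSeq (GRCh38.p14). POU5F1, LIN28A, PRDM14 and SALL4 had no window in the set used, so their promoters were not searched. The letters ATGCAAA or their reverse complement TTTGCAT, the core of the octamer that POU5F1 binds, were found in the windows of SOX2 and NANOG, and in 4.46% of all 35116 windows. The letters CATTGT or their reverse complement ACAATG, a core that SOX factors bind, were found in 10.8% of all windows. Among them were the NANOG window and a LIN28B window that is not shown (chr6:104940715-104941014), but not the other LIN28B window. NANOG held both, with a single base between them, and 0.729% of all windows held both at any spacing. Capitals mark these letters in the SOX2 window (chr3:181711675-181711974, plus strand) and in the NANOG window (chr12:7789152-7789451, plus strand), which lies inside the longer NANOG interval of the deposited table. A match of letters is a description of the window and no measure of binding.
SOX2 promoter: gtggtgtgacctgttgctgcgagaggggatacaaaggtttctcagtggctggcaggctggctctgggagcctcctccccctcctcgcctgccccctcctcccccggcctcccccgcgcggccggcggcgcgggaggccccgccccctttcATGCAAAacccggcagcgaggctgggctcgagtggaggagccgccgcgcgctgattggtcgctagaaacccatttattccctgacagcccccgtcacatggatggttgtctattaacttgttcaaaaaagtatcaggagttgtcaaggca
NANOG promoter: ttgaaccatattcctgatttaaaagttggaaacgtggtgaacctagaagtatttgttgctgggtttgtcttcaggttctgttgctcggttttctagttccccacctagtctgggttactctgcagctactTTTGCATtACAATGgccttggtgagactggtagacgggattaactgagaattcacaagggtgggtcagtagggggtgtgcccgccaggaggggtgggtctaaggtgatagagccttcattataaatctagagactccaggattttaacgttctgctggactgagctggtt

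The targets of LIN28A and LIN28B are shown by let-7a and its precursors. In the mature sequence the capitals mark the seed, bases 2 to 8, which was identical in all 8 let-7 5p sequences of RefSeq. In the hairpin of let-7a-1 (chr9:94175957-94176036, plus strand) they mark the GGAG letters that the zinc knuckles of LIN28 recognise, which 9 of 11 let-7 hairpins held beyond the mature stretch. The hairpin of let-7a-3 (chr22:46112749-46112822, plus strand) is printed for contrast, since it lacks them there. Mature let-7 was not analysed here.
hsa-let-7a-5p: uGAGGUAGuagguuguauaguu
let-7a-1 hairpin: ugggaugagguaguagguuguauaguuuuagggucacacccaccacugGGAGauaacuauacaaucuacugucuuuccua
let-7a-3 hairpin: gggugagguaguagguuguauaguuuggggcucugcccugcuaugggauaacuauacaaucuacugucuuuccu

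With limma-trend, 0 of the 10 genes reached an adjusted p below 0.05. The adjustment was over every tested gene, and the test called 1.88% of them (181 higher and 180 lower in CFIm25-m, or 240 and 147 under total-count scaling). Of the 10, 3 had an unadjusted p below 0.05, against 15.1% of tested genes, and these were SALL4, PRDM14 and LIN28A, all lower in CFIm25-m. The edgeR test called 0 of the 10 (1.81% of tested genes), and DESeq2 called 1, SALL4 (3.7% of 16994 genes with an adjusted p). Without CFIm25-m 3, limma called 4 of the 10, and 5.55% of the 18809 genes then tested. SALL4 (adjusted p = 0.0039), PRDM14 (adjusted p = 0.00333) and LIN28A (adjusted p = 0.0133) were then lower and POU5F1 (adjusted p = 0.0374) higher. Leaving out any of the other libraries gave 0 calls.

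**Figure D1:**
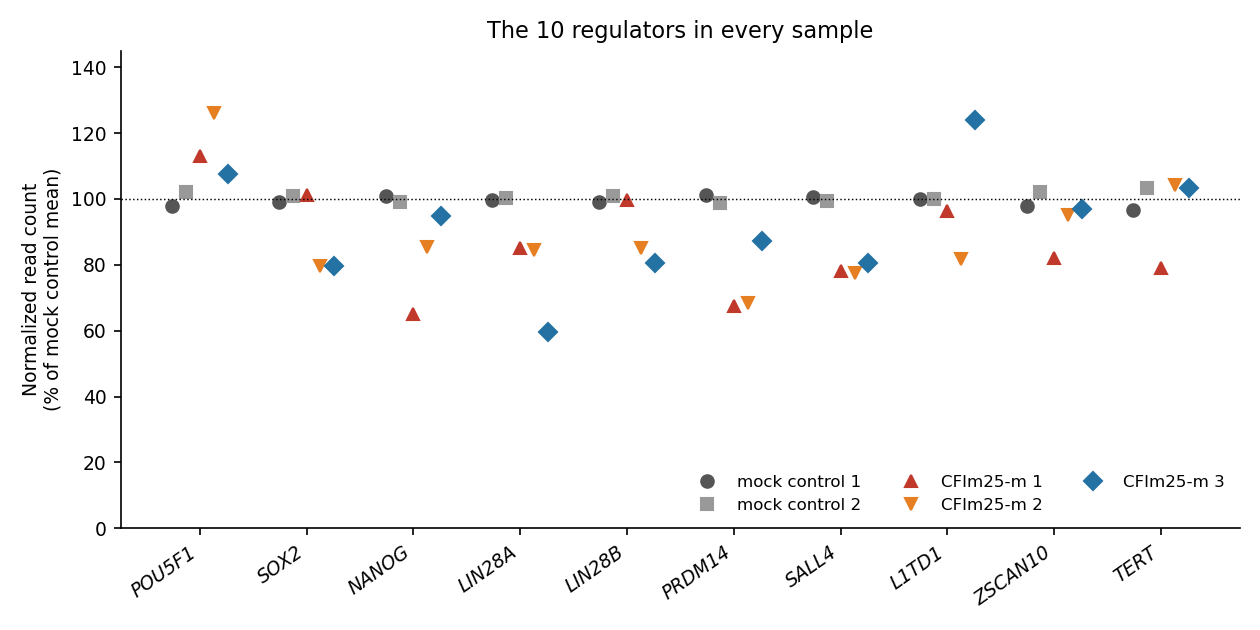
Normalized read count of each gene in each sample, as a percentage of its mock control mean (vertical axis, from 0). Grey symbols are the 2 mock control samples and coloured symbols the 3 CFIm25-m samples, and the dotted line is the mock control mean. The mock control samples sit close together for every gene, while the CFIm25-m samples spread from 59.7% for LIN28A to 126% for POU5F1.

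Most of the fold changes were negative, and the share of negative values over all tested genes was not counted. The log2 fold change was negative for 9 of the 10 genes, or 8 with edgeR, DESeq2, TMM or total-count scaling, where L1TD1 turned. The median was -0.20, beside -0.01 over all tested genes and -0.04 over those with a mean of at least 100. The 3 CFIm25-m samples all lay below both mock controls for 5 genes (SALL4, PRDM14, LIN28A, NANOG and ZSCAN10), a pattern that 19.8% of tested genes had. All 3 lay above for 1 gene, POU5F1, against 17% of tested genes. For SOX2, LIN28B, L1TD1 and TERT the groups overlapped. The 95% interval of the fold change lay within 2-fold in either direction for all 10 genes, as it did for 72.9% of tested genes. The lowest end of these unadjusted intervals was 0.581-fold, for LIN28A. The coefficient of variation, the SD over the mean, was larger in CFIm25-m than in mock control for all 10 genes, and for 78.7% of tested genes.

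**Figure D2:**
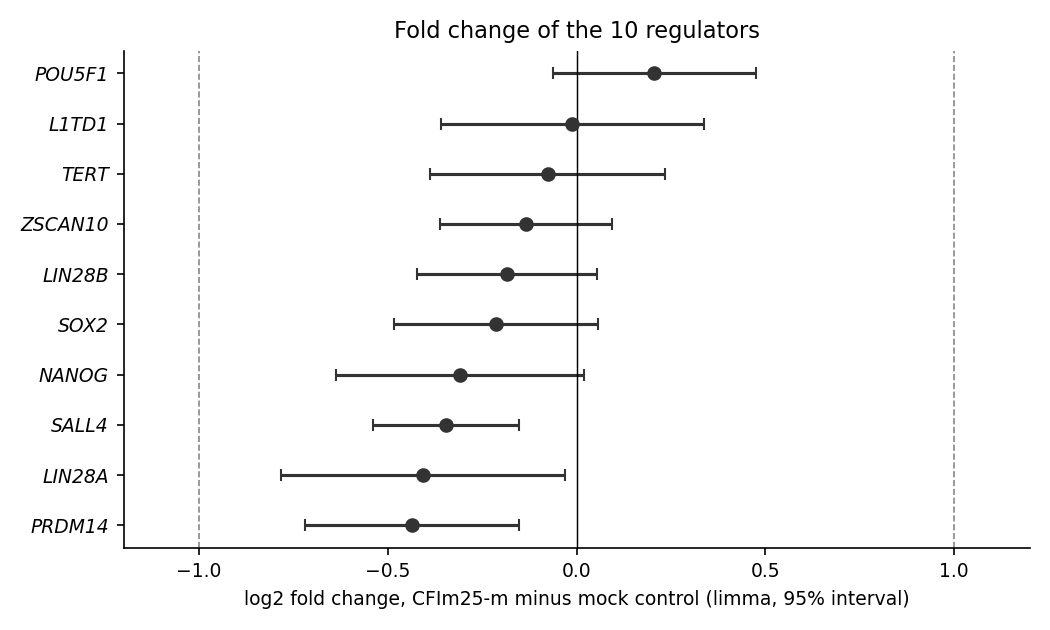
Log2 fold change of CFIm25-m over mock control for each gene (horizontal axis), from limma on log2(normalized read count + 1), with 95% intervals as bars. Dashed lines mark a 2-fold change in either direction, and every interval lies between them. The intervals of SALL4, PRDM14 and LIN28A lie below 0, before adjustment for the number of genes tested.

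Of the core factors, POU5F1 had a higher mean in CFIm25-m, and SOX2 and NANOG lower means, none past the threshold. POU5F1 (ENSG00000204531, chromosome 6, 31164337 to 31180731, minus strand) gave normalized read counts of 30200.3 and 31427 in the mock controls, against 34789, 38899 and 33173 in CFIm25-m. All CFIm25-m samples were thus higher, with CFIm25-m 2 the highest, and the mean was 1.16 times that of mock control. The log2 fold change of 0.21 (SE 0.121, adjusted p = 0.456, limma) did not pass the threshold. Its 95% interval ran from 0.957-fold to 1.39-fold.

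SOX2 (ENSG00000181449, chromosome 3, 181711924 to 181714436, plus strand), the partner of POU5F1 on DNA, was at 8996 and 9157 in the mock controls. In CFIm25-m it was at 9196, 7227 and 7229. CFIm25-m 1 was level with the controls and the other samples were lower, so the groups overlapped (log2 fold change -0.21, SE 0.121, adjusted p = 0.442, limma). The interval was 0.716-fold to 1.04-fold. Without CFIm25-m 3 its log2 fold change was -0.15 (adjusted p = 0.397), and without CFIm25-m 1 it was -0.33.

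NANOG (ENSG00000111704, chromosome 12, 7787794 to 7799141, plus strand), a homeodomain factor that stabilises the undifferentiated state, had 1324 and 1298 in the mock controls, against 852, 1118 and 1245 in CFIm25-m. Its samples lay below the controls, CFIm25-m 1 far below and CFIm25-m 3 just below. The log2 fold change was -0.31 (SE 0.147, adjusted p = 0.36, limma) and moved to -0.15 without CFIm25-m 1. Without CFIm25-m 3 it was -0.43 (adjusted p = 0.0665, limma). Within each library, the ratio of POU5F1 to NANOG per kilobase of gene length was 42.5 and 45.1 in the mock controls, against 76.0, 64.8 and 49.6 in CFIm25-m. The ratio of POU5F1 to SOX2 on the same scale was 2.91 and 2.98 against 3.28, 4.67 and 3.98. In both ratios the groups did not overlap. Both set POU5F1, which was higher in every CFIm25-m sample, over a gene with a lower CFIm25-m mean. NANOG was also lower in every CFIm25-m sample, so the ratio of POU5F1 to NANOG had to separate. How many other gene pairs separate this way was not counted, and these ratios were not tested.

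Among the DNA-binding partners, SALL4 had the most even difference. SALL4 (ENSG00000101115, chromosome 20, 51782331 to 51802520, minus strand), a zinc finger factor that binds with POU5F1 and NANOG, was at 6340.4 and 6273 in the mock controls, against 4918, 4889 and 5076 in CFIm25-m. The samples of each group lay close together and the groups were far apart, at 6307 ± 47.8 (SD, n = 2) and 4961 ± 100.3 (SD, n = 3). The log2 fold change was -0.35 (SE 0.0862, adjusted p = 0.0854, limma). The adjusted p was 0.101 with edgeR and 0.0208 with DESeq2. SALL4 ranked 569 of 19232 genes by p, the first of the 10.

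PRDM14 (ENSG00000147596, chromosome 8, 70051651 to 70071693, minus strand), a repressor of differentiation and signalling genes, had the most negative fold change over all 5 libraries. Without CFIm25-m 1 or CFIm25-m 2 that of LIN28A was more negative, at -0.49 in both cases against -0.37 and -0.38 for PRDM14. PRDM14 was at 1102 and 1073 in the mock controls, against 735, 745 and 948 in CFIm25-m, so that CFIm25-m 1 and 2 were the lowest and CFIm25-m 3 lay between them and the controls. The log2 fold change was -0.44 (SE 0.127, adjusted p = 0.137, limma), with an interval of 0.608-fold to 0.899-fold. It was -0.56 without CFIm25-m 3.

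ZSCAN10 (ENSG00000130182, chromosome 16, 3088890 to 3099317, minus strand), another zinc finger partner of the network, was at 5821 and 6062 in the mock controls, against 4868, 5649 and 5761 in CFIm25-m. Only CFIm25-m 1 was well below the controls (log2 fold change -0.13, SE 0.102, adjusted p = 0.566, limma). Without CFIm25-m 1 the log2 fold change was -0.06, and without CFIm25-m 3 it was -0.18 (adjusted p = 0.202).

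The LIN28 paralogs both had lower means, but differed in which samples were low. LIN28A (ENSG00000131914, chromosome 1, 26410778 to 26429722, plus strand) was at 56271 and 56659 in the mock controls, against 48004, 47650.5 and 33716 in CFIm25-m. All CFIm25-m samples were lower, and CFIm25-m 3, at 59.7% of the mock control mean, was the lowest by far. The log2 fold change was -0.41 (SE 0.169, adjusted p = 0.292, limma), and -0.24 without CFIm25-m 3. Of 2 genes commonly used as references, GAPDH was also lowest in CFIm25-m 3, at 32496 against 46890 and 47960 in the mock controls, as was ACTB, at 82107 against 100818.5 and 100945.5; the part of this in the LIN28A value was not tested.

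LIN28B (ENSG00000187772, chromosome 6, 104936616 to 105083332, plus strand) had 3595 and 3657 in the mock controls, against 3611, 3084 and 2918 in CFIm25-m. CFIm25-m 1 was level with the controls and the others were lower (log2 fold change -0.18, SE 0.107, adjusted p = 0.451, limma). Without CFIm25-m 3 the log2 fold change was -0.12 (adjusted p = 0.428). Per kilobase of gene length, LIN28A exceeded LIN28B by 23.4 and 23.2 times in the mock controls and by 19.9, 23.1 and 17.3 times in CFIm25-m.

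L1TD1 (ENSG00000240563, chromosome 1, 62194831 to 62212328, plus strand), an RNA-binding protein that interacts with LIN28A, went opposite ways in different samples. It was at 13361 and 13394 in the mock controls, against 12884, 10934 and 16598 in CFIm25-m. CFIm25-m 3 was the highest of all libraries and CFIm25-m 2 the lowest. The mean ratio was 1.01 and the log2 fold change -0.01 (SE 0.156, adjusted p = 0.982, limma), a sign that turned under 6 of 15 alternatives. It was -0.17 without CFIm25-m 3 (adjusted p = 0.215).

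TERT (ENSG00000164362, chromosome 5, 1253147 to 1295069, minus strand) was the lowest of the 10 genes, at 619 and 661 in the mock controls, against 505, 668 and 662 in CFIm25-m. CFIm25-m 2 and 3 lay at the level of mock control 2, and CFIm25-m 1 was lower (log2 fold change -0.08, SE 0.139, adjusted p = 0.833, limma). The interval was 0.765-fold to 1.18-fold, and the sign turned without CFIm25-m 1, to 0.06. Without CFIm25-m 3 the log2 fold change was -0.14 (adjusted p = 0.6).

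Compared per kilobase of the deposited gene length, the levels of the 10 genes spanned from 139 for TERT to 14088 for LIN28A in mock control. The order was LIN28A, POU5F1, SOX2, L1TD1, ZSCAN10, SALL4, LIN28B, PRDM14, NANOG and TERT, and no neighbours in it overlapped between the 2 samples. In CFIm25-m POU5F1 (mean 12299.8 per kilobase) stood before LIN28A (10759) and L1TD1 before SOX2, but the samples of both pairs overlapped, while the other neighbours stayed apart and in the same order. LIN28A, POU5F1, SOX2 and L1TD1 were above the 99th percentile of tested genes in both groups. TERT was at percentile 66.7 in mock control, so even the lowest of the 10 was well above the middle of the tested genes.

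**Figure D3:**
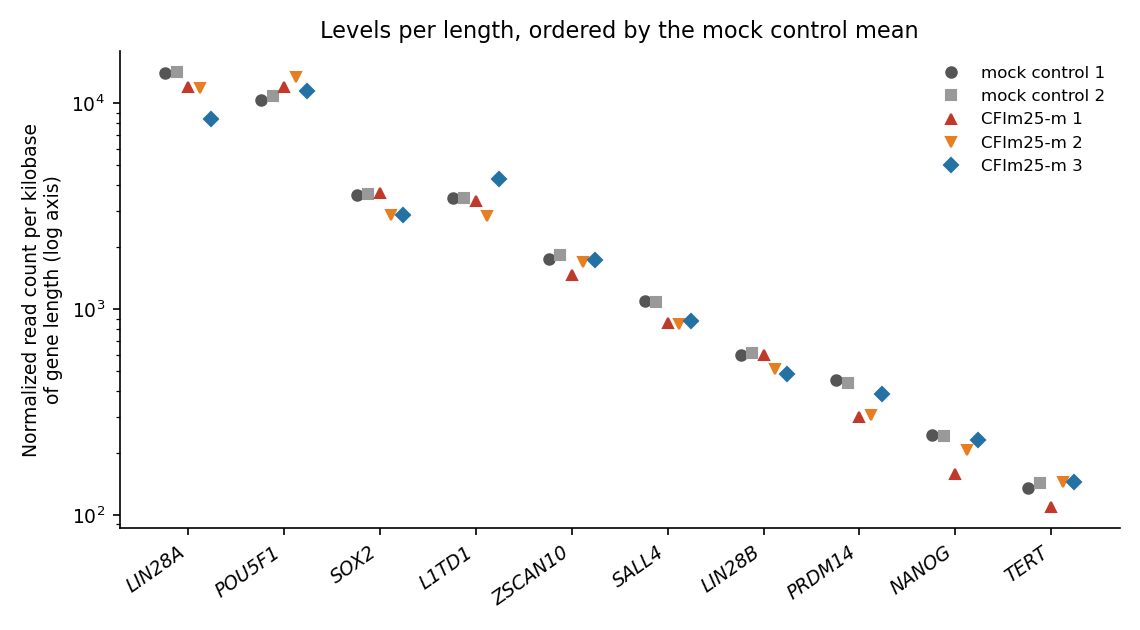
Normalized read count per kilobase of gene length (vertical log axis) for each gene in each of the 5 samples, ordered by the mock control mean. The levels range from 14088 for LIN28A to 139 for TERT in mock control, and the symbols of the CFIm25-m samples stay near those of the controls.

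Reads of POU5F1 and NANOG can be shared with near-identical copies. Of 13 listed genes named after a member (copies, SOX2-OT and LIN28B-AS1), 7 reached a normalized read count of 10 in 2 or more samples. In GENCODE transcripts, 573 of the 5033 windows of 150 bases, the read length, along NANOG (11.4%) occurred exactly in another gene, as did 56 of the 2127 windows of POU5F1 (2.63%). In the sense direction, which was the only one searched, the windows of the other 8 genes occurred in no other gene. For this reason values of POU5F1 and NANOG and of their copies are uncertain where counting could split them.

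The copy POU5F1B was at 592 and 630 in the mock controls, against 747, 745 and 682 in CFIm25-m, higher in all like POU5F1 itself (log2 fold change 0.24, SE 0.105, adjusted p = 0.311, limma). The pseudogenes POU5F1P3 and POU5F1P4 overlapped between groups, with 252 and 249 against 313, 302 and 159 for POU5F1P3 and 175 and 139 against 186, 208 and 164 for POU5F1P4. The 5 listed POU5F1 copies together came to between 3.04% and 3.59% of POU5F1 in each library. Adding them left the log2 ratio of the group means at 0.21.

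NANOG was closer to its copies in level. NANOGP1, a neighbouring duplicate, was at 153 and 126 in the mock controls, against 52.1, 90.9 and 90.4 in CFIm25-m, lower in all, with CFIm25-m 1 lowest as for NANOG (log2 fold change -0.88, SE 0.269, adjusted p = 0.158, limma). NANOGP8, on chromosome 15, was at 305 and 303 and at 272, 360.1 and 350.1, and the groups overlapped. The 5 listed NANOG copies came to between 33.2% and 40.4% of NANOG, and with them the log2 ratio of the group means went from -0.29 to -0.25.

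**Figure D4:**
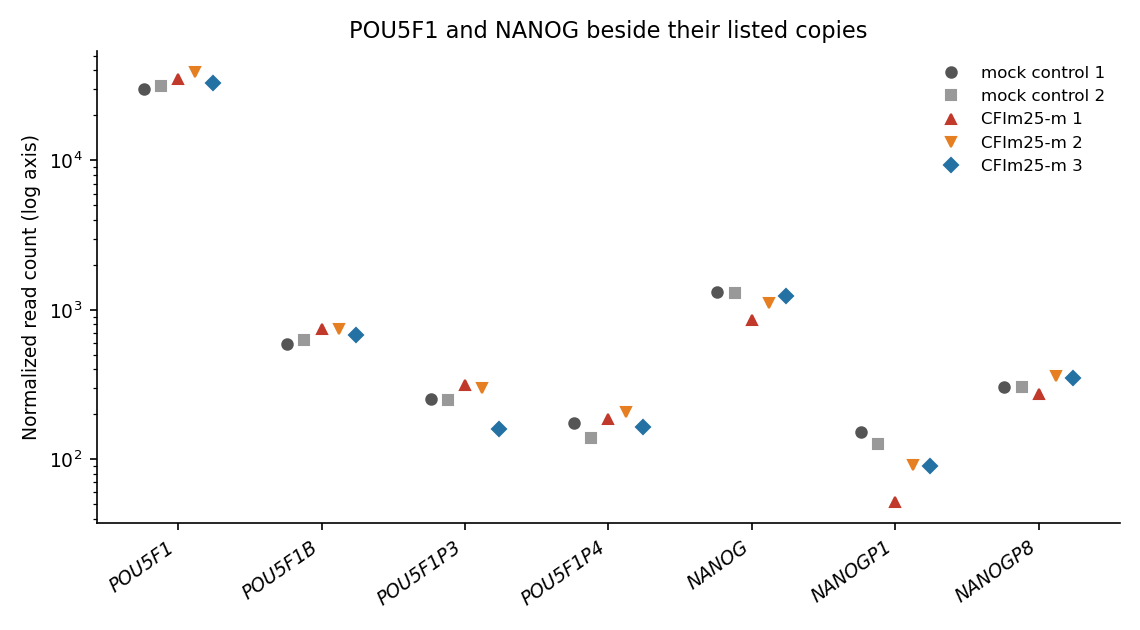
Normalized read count (vertical log axis) of POU5F1 and NANOG and of their listed copies with enough reads, in each of the 5 samples. The POU5F1 copies lie far below POU5F1, while NANOGP8 and NANOGP1 lie nearer to NANOG, and NANOGP1 is lower in each CFIm25-m sample than in either mock control.

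The study's RT-qPCR primers for POU5F1 and NANOG also occurred in transcripts of some of these copies. Neither NANOG primer occurred in those of NANOGP1, and the forward NANOG primer also occurred in other genes, such as KDM5B. The reverse primer for NANOG occurred in transcripts of NANOG and NANOGP8, and the forward primer for SOX2 in those of SOX2 alone. Both are shown for this contrast, with no part in capitals.
NANOG-R1: aagcaaagcctcccaatcccaaac
SOX2-F1: ccatgcaggttgacaccgttg

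Genes on overlapping ground were checked too, as a strand setting for the counts is not given in the sources used here. TCF19, a transcription factor gene on the strand opposite to POU5F1, shares 2823 bases with the POU5F1 interval. It was at 354 and 351 in the mock controls and rose to 484, 588 and 528 in CFIm25-m (log2 fold change 0.59, adjusted p = 0.044, limma). The call was lost without CFIm25-m 1 (adjusted p = 0.0822), CFIm25-m 2 (adjusted p = 0.0987), mock control 1 (adjusted p = 0.39) or mock control 2 (adjusted p = 0.406). TCF19 came to between 1.12% and 1.59% of POU5F1, and reads from the shared stretch cannot be told apart without strand. SOX2-OT, a long transcript across SOX2 on the same strand, ran from 63.9 to 96.8 with overlapping groups. LIN28B-AS1, opposite to LIN28B, ran from 19.2 to 29.1, and its groups overlapped as well. AL162739.1, a pseudogene opposite to L1TD1, ran from 36.7 to 40.3 in the mock controls and from 40.5 to 61.6 in CFIm25-m (adjusted p = 0.606, limma).

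Around the 10 genes, 105 other tested genes in 5 lists gave 5 calls, or 4.76% against 1.88% of all tested genes, with 3 higher and 2 lower and a median log2 fold change of -0.06. The first 2 lists held 4 of the 5. The lists were chosen with earlier results of these data known, so their share of calls is a description and no test. Of 33 partner factors of the core network, all tested, 1 rose and 1 fell, and 31 did not pass, with a median of -0.16.

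JARID2, a cofactor of Polycomb repressive complex 2, was at 13443 and 13418 and fell to 10166, 9239 and 9387 (log2 fold change -0.49, adjusted p = 0.0354, limma). SOX3, a relative of SOX2, was at 343 and 424 and rose to 1151, 1385 and 624 (log2 fold change 1.39, adjusted p = 0.0354, limma), the widest spread of the called genes. Both calls were lost when any library but CFIm25-m 3 was left out. Without mock control 1, mock control 2, CFIm25-m 1 or CFIm25-m 2, the adjusted p was 0.498, 0.48, 0.0794 or 0.0844 for JARID2 and 0.164, 0.0693, 0.181 or 0.105 for SOX3.

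Of 20 genes that mark the primed state besides the 10, all tested, 2 rose, none fell and 18 did not pass, with a median of 0.08. ZIC2, a zinc finger factor of the primed state, was at 1302 and 1326 and rose to 3497, 4175 and 3364 (log2 fold change 1.48, SE 0.109, adjusted p = 0.000228, limma), a call kept in all 15 alternatives. DUSP6, a phosphatase induced by FGF and ERK signalling, was at 482 and 514 and rose to 1171, 1852 and 1126 (log2 fold change 1.43, SE 0.19, adjusted p = 0.00584, limma). Without the variance trend of limma this call was lost (adjusted p = 0.121), as were those of NUDT21 (0.106), TCF19 (0.163), SOX3 (0.222), JARID2 (0.167) and TRIM71 (0.175). With a filter at a mean of at least 100, limma lost TCF19 (adjusted p = 0.0524), SOX3 (0.0546) and TRIM71 (0.0563). It also lost TCF19 with no filter (adjusted p = 0.0587). The summed count of the list ranged from 191733 to 200458 over the 5 libraries.

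The LIN28 and let-7 axis gave 1 call among 25 tested of 29 listed genes, with a median of -0.05. TRIM71 (LIN41), an RNA-binding let-7 target of stem cells, was at 24994 and 25323 and fell to 18593, 17464 and 15349.5 (log2 fold change -0.56, SE 0.115, adjusted p = 0.0429, limma). Its lowest sample was CFIm25-m 3, as for LIN28A. The call was lost without mock control 1, mock control 2, CFIm25-m 1 or CFIm25-m 2, at adjusted p of 0.475, 0.502, 0.0883 and 0.093. The remaining 24 tested genes of the axis, among them let-7 processing factors and let-7 targets, did not pass.

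No gene of telomerase and shelterin passed, of 20 tested and 22 listed, and none had an unadjusted p below 0.05 or a call by edgeR or DESeq2. The smallest p-values belonged to NAF1, an assembly factor of telomerase RNA, at 899 and 911 against 831, 773 and 738 (adjusted p = 0.357, limma), and to TINF2, a shelterin subunit, at 511 and 542 against 433, 484 and 425 (adjusted p = 0.38, limma). Both ran lower in all CFIm25-m samples, like 19.8% of all genes tested.

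Markers of early differentiation were looked at as signs of other cell types in the cultures. Of 25 listed genes 23 were in the table and 7 had enough reads to test, and 0 passed by limma, edgeR or DESeq2, with none at an unadjusted p below 0.05. Levels differed between the listed markers. SOX17, FOXA2 and CDX2 were at most 1 read, TBXT at no more than 8.07 and EOMES at no more than 3.01 in any library. Others were higher, with TBX6 between 57.1 and 77.2 in every library. MIXL1 was at 8.07 and 20.3 in the mock controls, against 11.0, 13.5 and 29.8 in CFIm25-m. SOX7 reached 29.0 in mock control 2 and GATA4 17.0 in CFIm25-m 1. SOX1, a neural factor, was at 18.4 and 20.3 in the mock controls, against 11.0, 14.4 and 4.81 in CFIm25-m (adjusted p = 0.376, limma). KRT7, an epithelial keratin, was at 149 and 172 and at 266, 251 and 146 (adjusted p = 0.459, limma), and passed without CFIm25-m 3 (adjusted p = 0.0214). The summed level of the list, most of it KRT18, was 4011 and 4147 in the mock controls, against 3663, 4446 and 4231 in CFIm25-m. In bulk RNA, fewer cells of a type and less RNA per cell cannot be told apart.

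**Figure D5:**
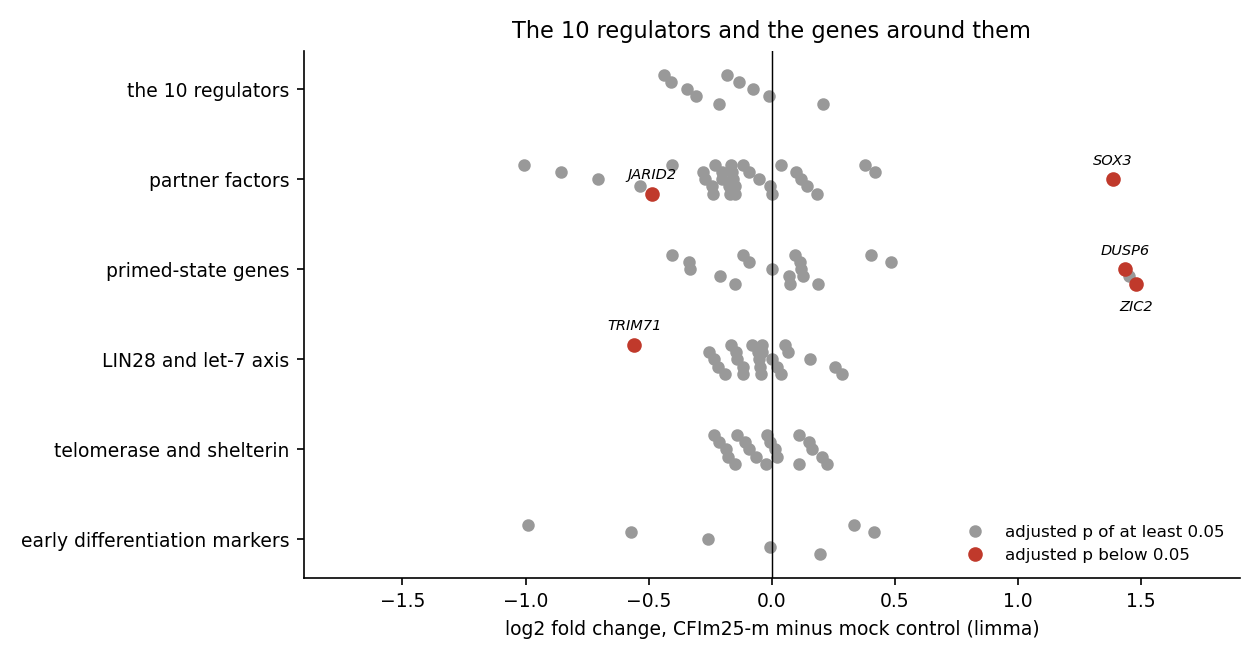
Log2 fold change of CFIm25-m over mock control (horizontal axis, limma) for the 10 regulators and for the tested genes of the 5 lists, 1 point for each gene, with vertical offsets for legibility only. Red points passed an adjusted p of 0.05 and are named. No red point is among the 10 regulators, whose points lie between -0.44 and 0.21.

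The profile nearest to that of SALL4, the member with the smallest p, belonged to SHANK2 among 11526 protein-coding genes with a mean of at least 100, by Euclidean distance over the 5 samples on the log2 scale (distance 0.0395). SHANK2, a synaptic scaffold gene, was at 1969 and 1884 in the mock controls, against 1512, 1518 and 1554 in CFIm25-m (adjusted p = 0.101, limma). SFMBT2 (distance 0.0474, adjusted p = 0.296) and FP565260.1 (distance 0.0561, adjusted p = 0.126) followed. Without CFIm25-m 3, SHANK2 (adjusted p = 0.0169, limma) and FP565260.1 (adjusted p = 0.0363, limma) passed, as SALL4 did. SFMBT2 did not (adjusted p = 0.156, limma). The genes were picked for their likeness to SALL4, so their calls add no evidence on it.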

How the data were processed

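Poly(A+) RNA of 2 mock control and 3 CFIm25-m samples was sequenced by the authors on a NovaSeq with the PE150 strategy. The submitters' processing notes list hg38, HISAT2, featureCounts, Subread and DESeq2, without versions, and the strand setting is not given in the sources used here. The authors deposited 1 table of a normalized signal per gene, a read count scaled by the size factor of its sample. Values came out as whole reads (within 0.01 reads) for 100% of them. The table also holds the authors' group means, log2 fold changes and p-values, which were not used. Samples were grouped by their labels.

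Values of log2(value + 1) were compared by limma 3.58.1 (R 4.3.3, trended variance) for the 19232 genes that reached 10 in 2 or more samples, so fold changes of low genes are understated. P-values were adjusted by Benjamini-Hochberg over these genes, with a threshold of 0.05. Intervals are 95% and unadjusted. The totals were between 18754108 and 23372391 reads, and counting error at this depth was small beside the differences between pairs that include a CFIm25-m sample, but not between the mock controls. With 2 against 3 samples there are 10 arrangements, so an exact permutation test cannot go below p = 0.1 and was not used. The scripts were tested on simulated data.

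The 10 genes and the 5 lists around them were chosen with earlier results of these data known. The result for 1 gene is not reported here. From each list the text names up to 3 called genes each way with the largest fold change, or the 2 with the smallest p where none was called, besides NUDT21, ZFP42, listed copies and overlapping genes with reads, and the 3 nearest profiles; GAPDH, ACTB and the differentiation markers given by level were chosen after their values were seen. Alternatives were pseudocounts of 5 and 0.1, no filter, a mean of at least 100, no trend, the count models of edgeR 4.0.16 and DESeq2 1.42.0 fitted to whole reads, TMM and total-count scaling, a block for the replicate number and leaving out each sample, where a lone mock control is assumed to vary like the other group. Promoter and let-7 sequences are from RefSeq tables of GRCh38.p14, primers from the study's oligo list, and shared windows from GENCODE v44lift37 transcripts. Gene positions are those of the deposited table, in GRCh38.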

Additional observations from a re-analysis of the deposited data

How the results depend on the processing

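The count of the 10 genes called stayed at 0 under both other pseudocounts, both other filters, limma without trend, edgeR and both other scalings. It was 1 with DESeq2 and between 0 and 4 when 1 sample was left out, the 4 only without CFIm25-m replicate 3. Over all genes, 361 were called by default, 235 with a mean of at least 100, 46 without trend and 628 with DESeq2, and between 66 and 1044 with 1 sample left out (66 and 71 without mock control 1 and 2, and 143, 201 and 1044 without CFIm25-m 1, 2 and 3). In the 5 lists, 5 were called by default, 3 with a mean of at least 100, 1 without trend and between 2 and 16 with 1 sample left out (2 without either mock control or CFIm25-m 2, 3 without CFIm25-m 1 and 16 without CFIm25-m 3).

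Replicate numbers are shared by the labels only, and the deviations of same-numbered samples from their group means had correlations of 0.01 and 0.02. A replicate block gave 5 calls among the 10 genes, 30 in the lists and 2107 over all genes. CFIm25-m 3 has no partner under the block, so the fold changes were those without it.

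The sign of genes near 0 turned. L1TD1 was at 0.0323 with edgeR, 0.0227 with DESeq2, 0.0082 with TMM scaling and 0.0575 with total-count scaling, and between -0.17 and 0.13 with 1 sample left out. TERT was between -0.15 and 0.0557 with 1 sample left out. POU5F1P3 was at 0.0559 with edgeR, 0.047 with DESeq2, 0.0443 with total-count scaling and 0.29 with the replicate block, and between -0.20 and 0.29 with 1 sample left out. LIN28B-AS1 was at 0.0759 with the block and between -0.21 and 0.0759 with 1 sample left out. The causes were not tested.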
